A study of Homo sapiens with 6 samples.

Results

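AP-1 is a family of transcription factors built from pairs of basic leucine zipper (bZIP) proteins, and 10 genes that encode its subunits were followed here by gene symbol: JUN, JUNB and JUND, FOS, FOSB, FOSL1 and FOSL2, and the related ATF3, MAFF and BATF3. All 10 were among the 45372 Ensembl gene IDs measured, and 8 of them were among the 13680 genes tested, those with at least 1 TPM (a transcript level corrected for gene length and scaled to the library total) in at least 3 of 6 libraries. FOSB and BATF3 stayed under that filter and are given by their values. The RNA came from HUVECs, primary endothelial cells of the human umbilical vein labelled as wild type, 48 h after transfection by lipid reagent with 50 nM miR-409-3p mimic (3 libraries) or with a non-specific control (3 libraries). By the design text, each RNA sample combined 4 technical replicates, and the labels call the libraries biological replicates without naming a donor or culture, so the p-values measure the spread between these libraries, which may be technical. The titles of both groups call the cells not treated, with no word on which treatment is meant.

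JUN proteins pair with each other or with FOS proteins, and the pair reads the DNA element TGAGTCA through the basic region of each partner. FOS, FOSB and JUNB are immediate early genes: growth factors, cytokines and stress switch them on within minutes through MAP kinases and the serum response factor, and their mRNAs, which carry AU-rich elements, decay quickly. In endothelium AP-1 acts on genes of inflammation, matrix breakdown and vessel growth. FOS and FOSB hold a strong activation domain that FOSL1 and FOSL2 lack, JUNB and JUND are weaker activators than JUN on many promoters, and BATF3 and MAFF have no classical activation domain.

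The mimic copies the mature miR-409-3p strand, which pairs with transcripts mainly through its seed, bases 2 to 8 (in capitals). The mature sequence is shown because it fixes which letters to look for in the subunit transcripts (RefSeq, GRCh38.p14, chromosome 14, 101065346 to 101065367, plus strand).
hsa-miR-409-3p: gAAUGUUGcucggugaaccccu

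The longest annotated 3′ UTR (GENCODE 29) of 0 of the 10 subunits held a site pairing with 7 or 8 bases (CAACATT, CAACATTA or AACATTA), as 22.7% of 11956 searched protein-coding genes did. The 6-base match AACATT was the longest match in JUN and FOSB, 2 of 10 subunits, and in 22.6% of searched genes. The other 8 held no match, as did 54.7% of searched genes. JUN had 3 copies in its 1287-base UTR and FOSB 1 copy in 2167 bases. They are shown, with the match in capitals, because they were the only seed matches found in the family.
JUN, UTR position 288: ttttcgttAACATTgaccaaga
JUN, UTR position 315: atggacctAACATTcgatctca
JUN, UTR position 1050: agaagtcaAACATTtcaaagtt
FOSB, UTR position 1470: gcatgaaaAACATTccacgtgc

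Depth, estimated from the step size of low TPM values, was 29.9 to 35.8 M assigned reads in mimic and 32.2 to 34.8 M in control libraries. Endothelial markers summed to 5202 to 5388 TPM in mimic and 4986 to 5298 TPM in control libraries over 10 genes. Of these 10, 0 passed the limma test at an adjusted p under 0.05, beside 0.431% of all tested genes. The leukocyte genes PTPRC and CD3E, the epithelial keratins KRT5 and KRT14 and the smooth muscle factor MYOCD were listed at 0 in every library. Over 5 genes each, the summed level in mimic and control libraries was 0.105 to 0.613 and 0.259 to 0.425 TPM for leukocytes, 8.23 to 9.49 and 7.50 to 10.1 TPM for smooth muscle, 10.4 to 11.3 and 9.27 to 11.8 TPM for fibroblasts and 14.7 to 19.7 and 19.0 to 20.2 TPM for epithelium. Of the 5 marker genes of these other types that reached the filter, 0 passed, beside the same 0.431%. With so small a share, these counts do not show that the cell types were unchanged.

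JUNB, FOSL2 and ATF3 had higher values in all 3 mimic libraries than in any control library, with mean ratios of 1.31, 1.23 and 1.53, but none of the 8 tested subunits passed the adjusted threshold of 0.05. JUN, JUND and FOSL1, the most abundant subunits, lay at nearly the same level in both groups, and FOS, the founding member, was a low transcript with a group mean ratio of 0.772. By limma on log2(TPM + 1) with Benjamini-Hochberg adjustment, 0 of 8 subunits rose and 0 fell, against a background of 0.132% of tested genes that rose, 0.3% that fell and 0.431% in all. At an unadjusted p under 0.05, 4 of 8 were higher (JUNB, ATF3, FOSL2 and MAFF) and 0 lower, where 3.05% of tested genes were higher and 7.64% lower. Groups did not overlap for 3 of 8, all higher in mimic cells, where 5.16% of tested genes lay higher without overlap and 10.5% lower. In bulk RNA, a different share of expressing cells and a different amount of RNA per cell cannot be told apart.

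**Figure D1:**
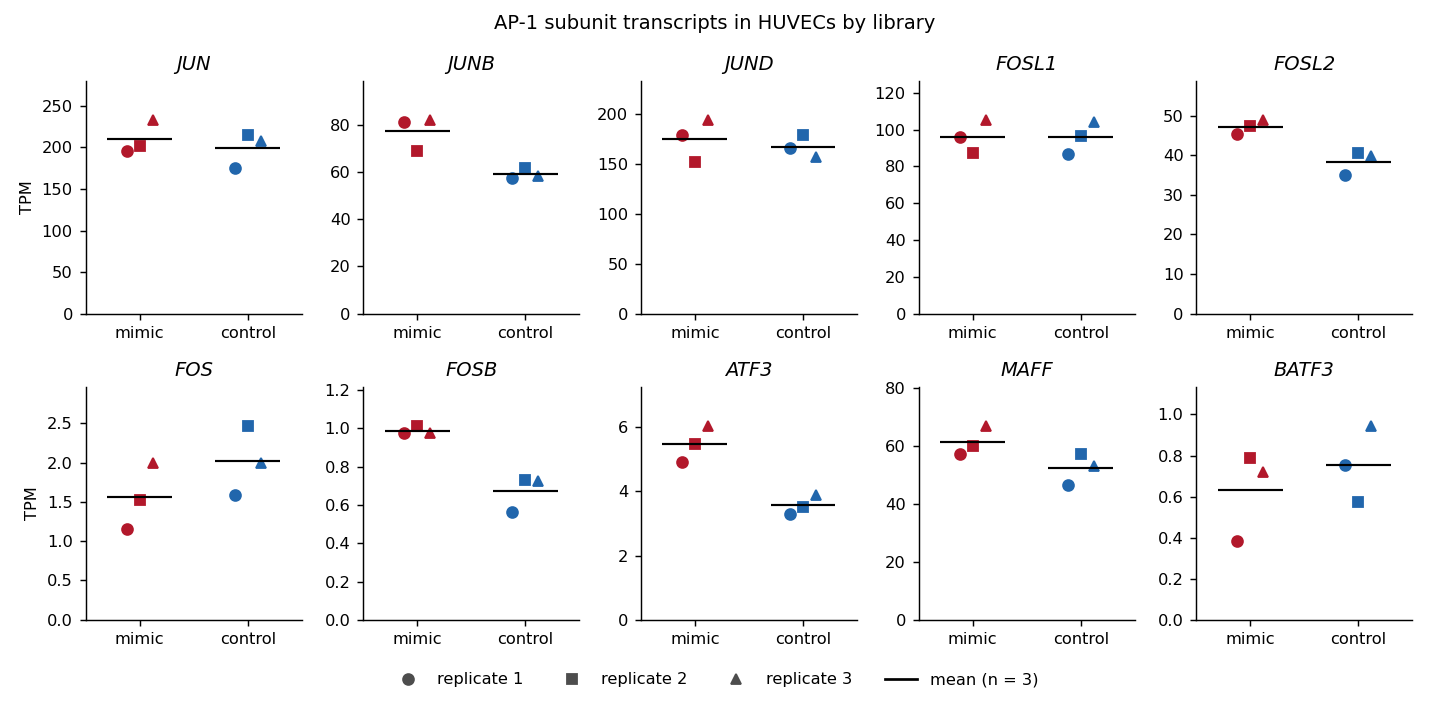
TPM of the 10 AP-1 subunit genes in each library, 1 panel per gene with its own axis from 0. Mimic libraries stand left (red), control libraries right (blue), and bars are means of 3. Marker shapes are replicate numbers, which were not treated as pairs. JUNB, FOSL2, ATF3 and FOSB show no overlap between groups, and the other 6 genes overlap.

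JUN, the strongest activator of its family, was the most abundant subunit. It measured 195, 202 and 233 TPM in mimic libraries, against 176, 215 and 207 TPM in control libraries. The ranges overlapped, with the highest value in mimic library 3 and the lowest in control library 1. The log2 fold change was 0.08 (SE 0.09, 95% interval -0.13 to 0.29, limma adjusted p = 0.897), and JUN (ENSG00000177606) is an intronless gene on the minus strand of chromosome 1 (GRCh38, 58780788 to 58784327).

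JUNB, which can oppose JUN at some promoters and replace it at others, had the lowest p of the family. It measured 81.2, 68.8 and 82.1 TPM in mimic libraries, against 57.3, 61.9 and 58.2 TPM in control libraries. All 3 mimic values lay above all 3 control values, with mimic library 2 the nearest to the control range. The means were 77.4 ± 7.44 and 59.1 ± 2.43 TPM in mimic and control cells (SD, n = 3 each), a log2 fold change of 0.38 (SE 0.08, 95% interval 0.20 to 0.55, limma adjusted p = 0.0847, rank 142 of 13680 by p). Without mimic library 2 the log2 fold change was 0.46 with a limma adjusted p of 0.0269, and without each of the other 5 libraries in turn the adjusted p ran from 0.144 to 0.301. A filter of 5 TPM gave an adjusted p of 0.0467 and no filter one of 0.275. JUNB (ENSG00000171223, chromosome 19, plus strand, 12791496 to 12793315) is intronless, and 259 of its 1820 exonic bases lie over exons of HOOK2 on the other strand. The use of strand is not given in the sources used here, and HOOK2 itself averaged 5.78 ± 0.503 TPM in mimic and 5.55 ± 0.555 TPM in control cells.

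JUND, the subunit usually linked to resting cells, measured 178, 152 and 194 TPM in mimic libraries, against 165, 179 and 157 TPM in control libraries. Mimic library 3 held the highest value and mimic library 2 the lowest, so the control values fell inside the mimic range. The log2 fold change was 0.06 (SE 0.09, 95% interval -0.15 to 0.27, adjusted p = 0.927). JUND (ENSG00000130522, chromosome 19, minus strand, 18279760 to 18281622) is the third intronless member, and single-exon genes made up 6.22% of tested genes with an annotated transcript.

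FOSL1 (FRA-1), a FOS relative that accumulates in growing and migrating cells, carried most of the FOS family. It measured 96.1, 87.0 and 105 TPM in mimic libraries, against 86.6, 96.5 and 104 TPM in control libraries, and the groups covered almost the same range. Its log2 fold change was 0.0052 (SE 0.09, 95% interval -0.19 to 0.20, adjusted p = 0.995). FOSL1 (ENSG00000175592) lies on the minus strand of chromosome 11 (65892049 to 65900573).

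FOSL2 (FRA-2), the other FOS relative without the strong activation domain, measured 45.4, 47.4 and 48.9 TPM in mimic libraries, against 34.9, 40.5 and 39.7 TPM in control libraries. The groups did not overlap, and control library 1 was the lowest of the 6. The means were 47.2 ± 1.78 and 38.4 ± 3.03 TPM in mimic and control cells (SD, n = 3 each), a log2 fold change of 0.29 (SE 0.07, 95% interval 0.13 to 0.45, adjusted p = 0.136). FOSL2 (ENSG00000075426) lies on the plus strand of chromosome 2 (28392448 to 28417312).

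FOS was near the floor of the assay. It measured 1.16, 1.52 and 2.00 TPM in mimic libraries, against 1.59, 2.47 and 1.99 TPM in control libraries, an estimated 30, 43 and 48 reads against 42, 64 and 55. The groups overlapped, with a log2 fold change of -0.24 (SE 0.18, 95% interval -0.64 to 0.16, adjusted p = 0.749). FOSB, its nearest relative, had 0.974, 1.01 and 0.978 TPM in mimic libraries, against 0.565, 0.729 and 0.728 TPM in control libraries, an estimated 44, 50 and 41 reads against 26, 33 and 35. The 3 mimic values lay above the 3 control values in TPM and in the reads, which were derived from TPM. Without overlap, the two-sided exact permutation p of the TPM difference is fixed at 0.1, the smallest that 3 against 3 allows. FOS (ENSG00000170345) is on chromosome 14 (75278774 to 75282230) and FOSB (ENSG00000125740) on chromosome 19 (45467995 to 45475179), both on the plus strand.

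ATF3, a stress-induced bZIP factor that often represses as a homodimer, showed the highest ratio of the tested subunits. It measured 4.90, 5.46 and 6.03 TPM in mimic libraries, against 3.29, 3.52 and 3.89 TPM in control libraries, an estimated 161, 196 and 184 reads against 110, 116 and 136. The groups did not overlap. The means were 5.46 ± 0.567 and 3.57 ± 0.303 TPM in mimic and control cells (SD, n = 3 each), a log2 fold change of 0.50 on the log2(TPM + 1) scale, which understates low genes (SE 0.11, 95% interval 0.25 to 0.75, adjusted p = 0.101). ATF3 (ENSG00000162772) lies on the plus strand of chromosome 1 (212565334 to 212620777).

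MAFF, a small MAF protein that binds DNA with FOS relatives or with NRF factors, measured 57.3, 60.2 and 67.0 TPM in mimic libraries, against 46.6, 57.5 and 53.3 TPM in control libraries. The groups met at 1 point, since control library 2 lay above mimic library 1. The log2 fold change was 0.23 (SE 0.09, 95% interval 0.03 to 0.43, adjusted p = 0.388). BATF3, known from dendritic cells as a JUN partner, had 0.383, 0.788 and 0.722 TPM in mimic libraries, against 0.751, 0.573 and 0.944 TPM in control libraries, an estimated 8, 18 and 14 reads against 16, 12 and 21. Its groups overlapped, and it was too low for the test. MAFF (ENSG00000185022) is on chromosome 22 (plus strand, 38200767 to 38216511) and BATF3 (ENSG00000123685) on chromosome 1 (minus strand, 212686418 to 212699985).

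**Figure D2:**
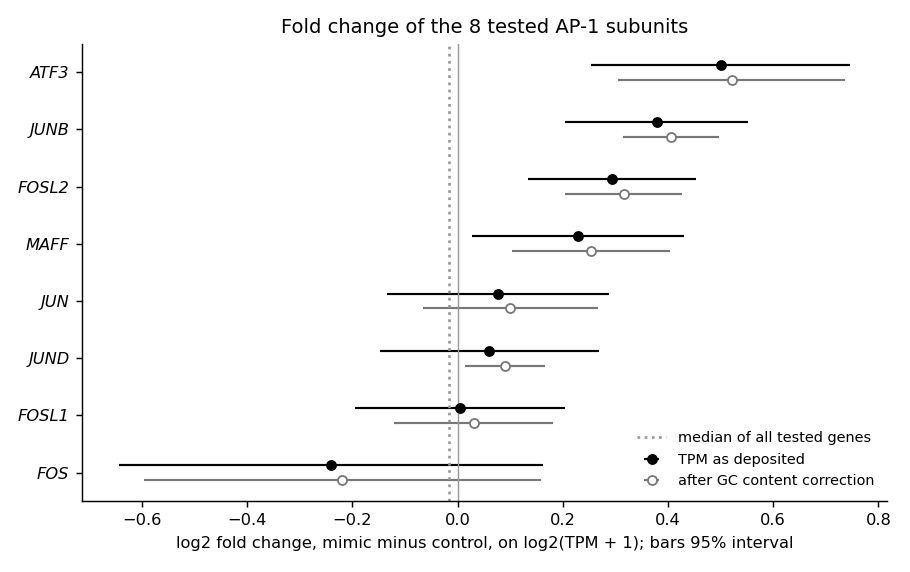
Log2 fold change (mimic minus control, on log2(TPM + 1)) of the 8 tested subunits with 95% limma intervals, from TPM as deposited (filled) and after a GC content correction (open); the dotted line is the median of all tested genes, -0.0166. ATF3, JUNB, FOSL2 and MAFF have intervals above 0, while JUN, JUND, FOSL1 and FOS span it before correction.

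Of the 8 tested subunits, 7 had a fold change above 0 and the median was 0.15, beside 43.4% of genes above 0 and a median of -0.0166 over all 13680. Ratios of 2 subunits within a library, which do not depend on its scaling, are given as a description, since the pairs were chosen after the values were seen. The JUNB to JUN ratio was 0.416, 0.341 and 0.352 in mimic libraries, against 0.326, 0.288 and 0.281 in control libraries. The JUNB to JUND ratio was 0.455, 0.453 and 0.423, against 0.346, 0.346 and 0.372. The FOSL2 to FOSL1 ratio was 0.472, 0.544 and 0.465 in mimic libraries, against 0.403, 0.420 and 0.382 in control libraries. These 3 ratios and that of ATF3 to JUN (mean 0.0260 ± 0.000965 in mimic and 0.0179 ± 0.00136 in control cells, SD, n = 3 each) had no overlap between groups. The upper gene of each pair was already known not to overlap, so no test is given.

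The order of levels was the same in both groups for the first 8 genes: JUN, JUND, FOSL1, JUNB, MAFF, FOSL2, ATF3 and FOS. In mimic libraries no neighbours in this order overlapped in range. In control libraries JUN overlapped JUND and JUNB overlapped MAFF, so those steps did not exceed the spread between libraries. JUN stood above 94.3% of tested genes by mean TPM, FOSL1 above 86.8%, JUNB above 81.1%, MAFF above 77.3%, FOSL2 above 70.7%, ATF3 above 21.2% and FOS above 8.64%.

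The summed transcript pool of the 10 genes was 661, 626 and 740.2 TPM in mimic libraries, against 573, 658 and 627 TPM in control libraries. The JUN family supplied 67.5% to 68.8% of it in mimic and 67.4% to 69.6% in control libraries, and its ratio to the FOS family ran from 3.09 to 3.24 and from 2.88 to 3.25, so the balance of the families overlapped between groups. Within the FOS family, FOSL1 and FOSL2 made up nearly all transcripts, FOSL1 with 63.6% to 67.0% in mimic and 68.8% to 71.0% in control libraries. FOSL2 supplied 31.1% to 34.6% in mimic and 27.1% to 28.9% in control libraries. These shares are tied to each other, since they divide the same sum. FOSL1 itself averaged 96.1 TPM in mimic and 95.7 TPM in control libraries. Within the JUN family, JUNB supplied 16.1% to 17.9% in mimic and 13.6% to 14.4% in control libraries. FOS and FOSB, the members with the strong activation domain, together with ATF3 and BATF3 are barely visible in the pool.

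**Figure D3:**
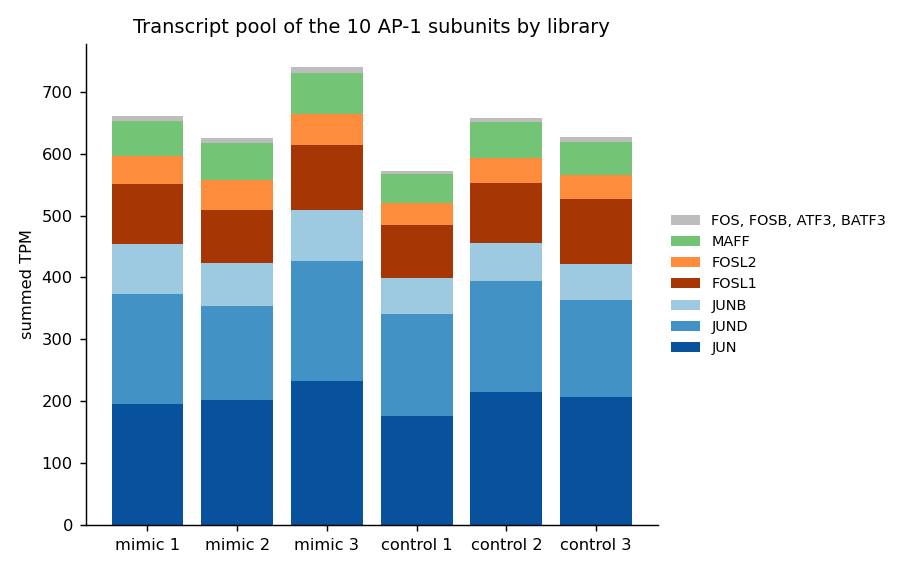
Summed TPM of the 10 AP-1 subunits in each library, stacked by gene, mimic libraries left of control libraries. The stacks reach 626 to 740.2 TPM in mimic and 573 to 658 TPM in control libraries, and JUN, JUND and FOSL1 form the largest blocks in all 6.

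Mimic library 3 held the highest value of 7 of the 10 genes and control library 1 the lowest value of 7. How often these libraries held the extremes over all tested genes was not counted. Transcripts of all 10 were richer in GC (50.8% for ATF3 to 69.7% for JUND) than the median tested gene (48.5%). The 10% of tested genes with the highest GC (1361 genes) had at least 61.8%, which of the tested subunits only JUNB (64.9%) and JUND reached. Those 1361 genes deviated from their own means by a median log2 of -0.0102, -0.13 and 0.11 in mimic libraries 1 to 3. In control libraries 1 to 3 the medians were -0.0235, 0.0826 and -0.0129. JUND deviated by 0.07, -0.16 and 0.19 in the mimic libraries, on the same side as those genes in libraries 2 and 3, and JUNB by 0.26, 0.0265 and 0.28. With GC content regressed out of each library, a step added after seeing the data, the log2 fold changes were 0.41 for JUNB (SE 0.04, limma adjusted p = 0.00763), 0.32 for FOSL2 (SE 0.05, 0.0273) and 0.52 for ATF3 (SE 0.09, 0.0414). These 3 then passed and 5 of 8 did not, MAFF at 0.25 (SE 0.06, 0.103) and JUND at 0.09 (SE 0.03, 0.217) among them, while calls over all genes grew from 59 to 257 (94 higher, 163 lower).

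**Figure D4:**
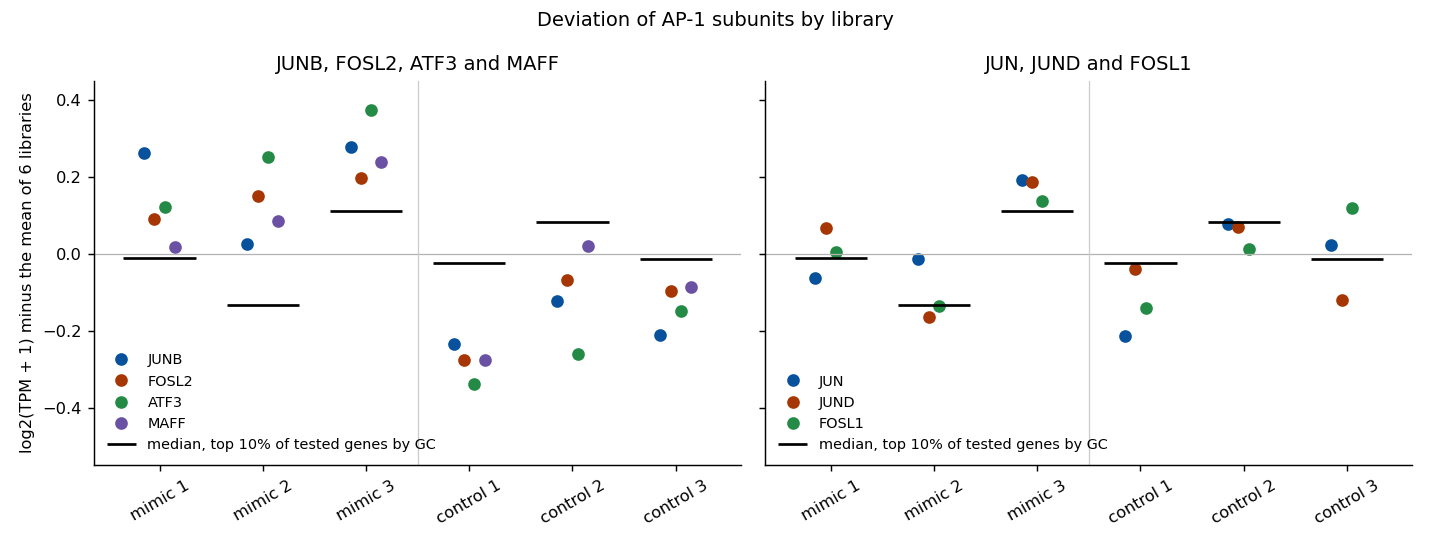
Deviation of log2(TPM + 1) from the mean of 6 libraries, for JUNB, FOSL2, ATF3 and MAFF (left) and JUN, JUND and FOSL1 (right), with mimic libraries left of control libraries in each panel. Black bars are the median deviation of the 10% of tested genes with the highest GC, lowest in mimic library 2 (-0.13) and highest in mimic library 3 (0.11). These genes have at least 61.8% GC, which of the plotted subunits only JUNB and JUND reach.

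The FOS and JUN members of at least 5 TPM were also set beside their most alike gene, by Pearson r of log2(TPM + 1) over the 6 libraries among 10564 others of at least 5 TPM, as a description. FOSL2 was most like ETS2 (r = 0.997), JUND most like GRHPR (0.994), FOSL1 most like PMF1-BGLAP (0.987), JUN most like TRPC4AP (0.986) and JUNB most like CKS1B (0.985). With 6 libraries many genes come this near: 40 had an r above 0.95 with FOSL2, 75 with JUND and 20 with JUNB. Among the subunits, FOSL2 correlated with ATF3 at 0.954 and with MAFF at 0.939, and FOS with JUNB at -0.393, over libraries that share the group difference, depth and GC deviation.

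Promoter windows (250 bases before to 50 after the start, RefSeq, GRCh38.p14) were listed for 8 of the 10 subunits. They were searched on both strands for TGAGTCA, the classical AP-1 element (4.95% of 35116 windows), TGACGTCA, the cAMP response element (1.85%), TGACATCA, a variant added after reading the windows (2.61%), and the CArG box bound by serum response factor (1.29%). FOSL2 held TGAGTCA, read on this strand as TGACTCA, 4 bases after its start. MAFF held TGACGTCA 54 bases and JUND 200 bases before the start. JUN held TGACATCA 67 bases before the start, and an upstream window of ATF3 held it 123 bases before. The windows of JUNB, FOS and FOSB held none of these letters, which says nothing of the factors themselves. Bases farther than 250 before the start were not searched, so elements there would have been missed. MAFF and ATF3 each had a second window, which held no match. The windows of 3 subunits with higher mimic means are shown, matches in capitals. They are a selection. ATF3 and FOSB also lay higher in mimic libraries without overlap, and JUN and JUND had higher mimic means, but their windows are not shown. FOSL1, also with a higher mimic mean, had no window listed.
JUNB, chr19:12791236-12791535, plus strand: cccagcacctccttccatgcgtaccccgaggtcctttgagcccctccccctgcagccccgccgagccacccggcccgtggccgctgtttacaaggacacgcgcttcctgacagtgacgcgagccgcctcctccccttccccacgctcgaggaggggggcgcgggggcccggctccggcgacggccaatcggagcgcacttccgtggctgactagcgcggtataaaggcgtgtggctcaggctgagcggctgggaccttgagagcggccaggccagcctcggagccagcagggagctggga
FOSL2, chr2:28392608-28392907, plus strand: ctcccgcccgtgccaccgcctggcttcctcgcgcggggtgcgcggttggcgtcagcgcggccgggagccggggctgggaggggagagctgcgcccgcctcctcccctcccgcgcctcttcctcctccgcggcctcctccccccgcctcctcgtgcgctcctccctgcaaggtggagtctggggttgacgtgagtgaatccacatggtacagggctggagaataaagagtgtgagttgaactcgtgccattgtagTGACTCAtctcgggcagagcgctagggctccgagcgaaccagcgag
MAFF, chr22:38201744-38202043, plus strand: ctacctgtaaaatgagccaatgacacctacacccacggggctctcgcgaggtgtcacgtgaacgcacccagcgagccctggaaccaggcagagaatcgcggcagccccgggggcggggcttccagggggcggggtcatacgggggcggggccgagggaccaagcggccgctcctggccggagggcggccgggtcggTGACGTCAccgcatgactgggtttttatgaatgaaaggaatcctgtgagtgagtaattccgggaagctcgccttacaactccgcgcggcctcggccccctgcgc

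All 10 subunits carried at least 1 ATTTA pentamer, the core of AU-rich elements, in the 3′ UTR, as did 73.9% of searched genes, and 8 of 10 carried TATTTAT, as did 35.7%. FOSL2 had 9 copies of ATTTA in 4864 bases, FOS 5 in 806 and MAFF 4 in 1633. JUNB had 2 in 500 bases and no TATTTAT.

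Transcripts of genes around AP-1 were described from 5 lists, none of which gave a call. In each, 0 genes rose and 0 fell by limma over all genes. Of 25 tested bZIP relatives, an unadjusted p under 0.05 marked 2 as higher and 4 as lower, with a median log2 fold change of 0.0054. At that p, 3.05% of all tested genes were higher and 7.64% lower. BACH1, a small MAF partner that represses antioxidant genes, averaged 15.4 ± 0.438 TPM in mimic and 12.7 ± 0.796 TPM in control cells (adjusted p = 0.192). NFE2L2, which encodes the antioxidant regulator NRF2, averaged 50.6 ± 3.15 and 58.3 ± 2.78 TPM, and ATF1, a CREB relative, 26.7 ± 0.478 and 31.0 ± 1.79 TPM (SD, n = 3 each; adjusted p = 0.297 and 0.243). The other members at that unadjusted p, beyond the naming rule and chosen after their values were seen, were NFIL3 (26.0 ± 2.65 and 21.5 ± 2.78 TPM), CEBPB (23.5 ± 2.44 and 28.0 ± 1.40 TPM) and CREB5 (2.49 ± 0.397 and 3.33 ± 0.260 TPM).

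Upstream, 31 tested genes of the MAP kinase cascade had a median log2 fold change of 0.0068. At an unadjusted p under 0.05 they held 0 higher and 1 lower, beside 3.05% and 7.64% of all tested genes. That gene was MAP2K4, a kinase of JNK, at 20.1 ± 1.36 TPM in mimic and 22.8 ± 0.762 TPM in control cells (adjusted p = 0.382), followed by the p38 kinase gene MAPK14 (43.1 ± 0.744 and 47.2 ± 2.54 TPM) and the ERK5 gene MAPK7 (15.1 ± 1.86 and 17.3 ± 0.810 TPM). The next list had 11 genes for serum response and ternary complex factors, ETS relatives and the coactivators CREBBP and EP300. Of these, 1 was higher at that p and 0 lower, beside 3.05% and 7.64% of all tested genes. It was ETS2, at 69.9, 71.9 and 73.5 TPM in mimic libraries against 58.9, 63.9 and 64.3 TPM in control libraries (log2 fold change 0.20, SE 0.06, adjusted p = 0.211). ELK3 averaged 373 ± 21.4 and 346 ± 13.5 TPM and ETS1 135 ± 12.6 and 123 ± 7.42 TPM in mimic and control cells.

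The list of turnover and co-regulators of FOS and JUN proteins held 15 tested genes. An unadjusted p under 0.05 marked 1 as higher and 0 as lower, beside 3.05% and 7.64% of all tested genes. It was CITED2, which encodes a ligand of the coactivators CBP and p300, at 117 ± 6.87 TPM in mimic and 93.6 ± 7.04 TPM in control cells (log2 fold change 0.32, SE 0.07, adjusted p = 0.103). COPS5, a signalosome subunit known to bind JUN, averaged 34.5 ± 2.12 and 37.6 ± 0.986 TPM, and CUL4A 66.1 ± 3.69 and 71.2 ± 4.08 TPM.

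Genes reported as AP-1 targets in endothelial or other cells gave 26 tested of 32, with a median log2 fold change of -0.0086. An unadjusted p under 0.05 marked 3 as higher and 2 as lower, beside 3.05% and 7.64% of all tested genes. HBEGF, a ligand of the EGF receptor, measured 59.1, 56.5 and 52.7 TPM in mimic libraries, against 36.6, 43.4 and 43.7 TPM in control libraries (log2 fold change 0.44, SE 0.08, adjusted p = 0.0685). DUSP1, a phosphatase that shuts off MAP kinases, averaged 59.8 ± 3.78 and 51.6 ± 4.86 TPM (0.380), and the metallothionein gene MT2A, whose family has close copies that may share reads, 1946 ± 324 and 2378 ± 228 TPM (0.421) in mimic and control cells. The other gene that was higher, chosen after its values were seen, was F3, which encodes tissue factor, at 4.68, 5.26 and 3.67 TPM in mimic libraries against 2.05, 2.25 and 2.80 TPM in control libraries (log2 fold change 0.71, SE 0.15, adjusted p = 0.0868), and the other lower one was EDN1, which encodes endothelin, at 959 ± 20.2 and 1058 ± 72.4 TPM. MMP3 and MMP9 were listed at 0 in every library.

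**Figure D5:**
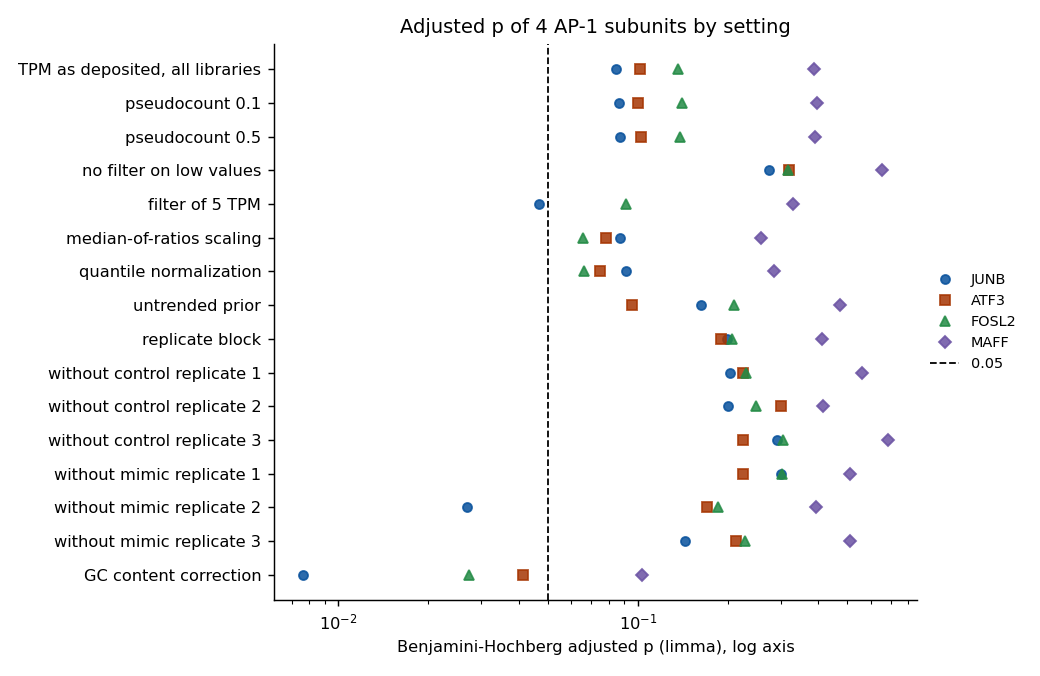
Benjamini-Hochberg adjusted p (limma, log axis) of JUNB, ATF3, FOSL2 and MAFF under each setting, with the threshold of 0.05 dashed. JUNB passed with a filter of 5 TPM, without mimic library 2 and after GC content correction, ATF3 and FOSL2 passed after GC content correction, and MAFF passed in no setting; ATF3 is missing at the filter of 5 TPM, which it did not reach.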

How the data were processed

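The authors deposited TPM values per gene for each library, per the file headers. Per the submitters' processing notes the builds were hg38 and GRCh38.p13. The aligner, counter, annotation and strand use were not given in the sources used here. Ensembl IDs were matched to symbols by table, and positions and UTRs from GENCODE 29 (GRCh38).

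All tested genes (at least 1 TPM in at least 3 of 6 libraries) were fitted with limma 3.58.1 in R 4.3.3 on log2(TPM + 1), trended prior, group as the only term, two-sided, with Benjamini-Hochberg adjustment over 13680 genes, and called at an adjusted p under 0.05. A log2 fold change is the mimic mean minus the control mean. The fit was also run on simulated data with independent noise and no GC deviation between libraries, so that run does not cover such a deviation. Alternatives changed the pseudocount, the filter, the scaling, the prior, the replicate block and the libraries used; GC content correction (lowess, span 0.3, per library) was added after seeing the data. Reads were estimated from low TPM values, of which 76.1% to 77.5% per library were whole multiples of 1 read within 0.02 reads. The step of each library was chosen to make this share as large as possible, so the share is no separate check. For each gene given in reads, a length factor was also fitted to make them whole (1.0161 for FOS, 1.0557 for BATF3). Estimated reads cover counting error only, as no molecular identifiers are named in the labels. Searches ran in Python 3.11.15 with pandas 2.3.3, permutation tests with scipy 1.17.1, and figures with matplotlib 3.10.9.

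Groups came from sample titles. Named genes were the 10 subunits, from each list any that passed and the 3 of at least 5 TPM with the lowest p, and the most alike gene of each FOS or JUN member of at least 5 TPM. Members, lists and tests were chosen with earlier results of these data known. Replicate numbers are shared by the groups, and the main fit did not treat them as pairs. The labels do not say whether the same number marks a shared donor or culture.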

Additional observations from a re-analysis of the deposited data

How the results depend on the processing

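All 15 alternatives kept the direction of JUNB, FOSL2 and MAFF, and the 14 that could be run for ATF3 and FOS kept theirs. Under GC content correction, chosen after the data were seen, JUNB (0.41), FOSL2 (0.32) and ATF3 (0.52) passed. That made 3 of 8 subunits and 257 of 13680 genes called. With a filter of 5 TPM JUNB passed (0.38), making 1 of 6 tested subunits and 115 of 10625 tested genes. Calls over all genes, 59 of 13680 (18 higher, 41 lower), were 11 of 23872 with no filter on low values and 20 of 13680 with an untrended prior. Quantile normalization gave 34 higher and 42 lower. Without 1 library, calls ran from 14 to 46 over all genes and from 0 to 1 over subunits, and fold changes from 0.33 to 0.46 for JUNB, 0.44 to 0.56 for ATF3, 0.23 to 0.33 for FOSL2 and 0.15 to 0.30 for MAFF. The fold changes nearest 0 turned in sign: JUN ran from -0.0119 to 0.13, FOSL1 from -0.0641 to 0.0741 and JUND from -0.0191 to 0.16, JUN and FOSL1 below 0 without control library 1, and JUN (-0.00042), FOSL1 (-0.062) and JUND below 0 without mimic library 3. The cause was not tested.

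The replicate number as a block gave 14 calls (9 higher, 5 lower) and 0 subunits, with an adjusted p of 0.199 for JUNB and 0.189 for ATF3. The deviations of same-numbered libraries correlated at 0.0309, -0.0872 and -0.11, and not every library correlated best with its own number. Depth limits FOS, FOSB and BATF3, at 8 to 64 estimated reads per library.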
